A study of Caenorhabditis elegans with 59 samples.

Results

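PolyA-selected RNA was compared with total RNA of wild-type Caenorhabditis elegans, in 6 of the 59 libraries of a study of small RNA pathways. The members were chosen by their labels: 3 libraries of polyA-selected RNA (replicates 1 to 3) and 3 of total RNA (replicates 1 to 3). All 6 came from whole gravid adults of the N2 strain, which carries no mutant allele here, aged 72 h and grown at 20 °C on E. coli OP50. In both groups ribosomal RNA had been depleted and RNA over 200 nt enriched, so that "total" means depleted RNA that was not selected for polyA. The labels name a pair of stranded library kits without saying which library was made with which, so a kit difference and the selection cannot be told apart. The labels do not state whether replicates were separate cultures, so that p-values refer to the spread among these 6 libraries, which may be technical.

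Most messenger RNAs end in a polyA tail, which is added after the transcript is cut and which binds to the oligo-dT used to select mRNA. The replication-dependent histone mRNAs are the main exception in animals: they end in a stem loop that is bound by a dedicated protein, and have no tail. Histone variants that are made outside of DNA replication are usually encoded by ordinary polyadenylated mRNAs. Tail length also varies among polyadenylated mRNAs, and in the germ line it is changed to control translation.

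The values were counts per gene that the authors had divided by a normalization factor for each library, called normalized counts here. Depth was about 3.22e+07, 5.2e+07 and 3.11e+07 reads in the polyA-selected libraries and 2.21e+07, 2.1e+07 and 2.1e+07 reads in the total RNA libraries, as judged from the steps between low values. Across genes, log2 values correlated at 0.991 to 0.995 between libraries of the same kind and at 0.964 to 0.969 between kinds, which describes the libraries and is no test. The yolk, oocyte and adult cuticle markers of gravid adults were all detected. Of 9 zygotic embryo markers, only pes-10 passed the filter on low values, and of the 6 markers of male neurons, none did, with a highest value of 11.3 for cwp-4. All 3 genes listed as markers of male seminal fluid passed it. Among them, swm-1 had a mean of 695 after selection and 581 before, and was called higher. In whole animals, fewer cells of a type and less RNA per cell cannot be told apart.

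The large changes were nearly all losses. Of 14570 genes tested with limma, 2368 (16.3%) passed a Benjamini-Hochberg adjusted p of 0.05, with 1571 (10.8%) lower and 797 (5.47%) higher in polyA-selected RNA. A loss of 2-fold or more was called for 395 genes (2.71%), and a gain of 2-fold or more for 7 (0.048%). The median change of all genes tested was 0.07 on the log2(normalized count + 1) scale, on which changes are given below as polyA-selected minus total, ± SE. Higher genes made up 33.7% of calls, against 23.0% with median-ratio scaling and 50.3% with scaling to library totals. Without total RNA replicate 1 the calls fell to 1537. The higher calls, 797 with all libraries, numbered 302 without total RNA replicate 1, 475 without its replicate 2, 527 without its replicate 3 and 405 without polyA replicate 3. The genes lower by 2-fold or more fell into 58 core histone genes, 214 other protein-coding genes, 40 pseudogenes, 21 transposon entries, 1 long noncoding RNA and 61 entries that RefSeq WBcel235 did not match.

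Core histone mRNAs, which encode the H2A, H2B, H3 and H4 proteins that package DNA in nucleosomes, all but disappeared with selection. The H4 gene his-64 measured 47.8, 38.1 and 125.8 normalized counts in the polyA-selected libraries and 39988, 39845 and 42660 in total RNA. The H2A gene his-61 measured 30.4, 38.1 and 37.3 after selection and 8231, 7856 and 7957 before. Every polyA-selected library lay far below every total RNA library for both genes, and the largest polyA value of his-64 came from replicate 3. The log2 change was -9.36 ± 0.271 for his-64, with an adjusted p of 7.16e-14 (limma).

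The table held 65 core histone genes, of which 61 passed the filter and 58 were called lower, against a background of 10.8% for all genes. All 58 were lower by 2-fold or more and showed no overlap between groups; the background of genes whose 3 polyA-selected libraries all lay below the 3 total RNA libraries was 15.8%. The median log2 change of the 61 was -7.90, beside 0.07 for all genes tested. Among the 58, the ratio of total to polyA-selected means ran from 12.04 to 879, with a median of 258. Core histone genes come in near-identical copies that the counting could not separate: 33 of them shared all 6 values with another, and the tested genes amounted to 42 distinct entries, of which 39 were lower. Of the 4 genes that did not pass the filter, his-39 was at 0 in all 6 libraries, his-42 and the identical pair his-27 and his-49 were at 0 in at least 2 of the polyA-selected libraries.

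The 4 classes behaved alike in this respect. Summed over each class without his-35, his-37 and his-41, H2A mRNA stood at 642 ± 131 (SD, n = 3) after selection and 127493 ± 4926 before, H2B at 292 ± 82.2 and 90854 ± 2597, H3 at 374 ± 154 and 112154 ± 4541, and H4 at 660 ± 250.1 and 217814 ± 8870. The sum before selection was 199 times that after it for H2A, 311 times for H2B, 300 times for H3 and 330 times for H4.

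**Figure D1:**
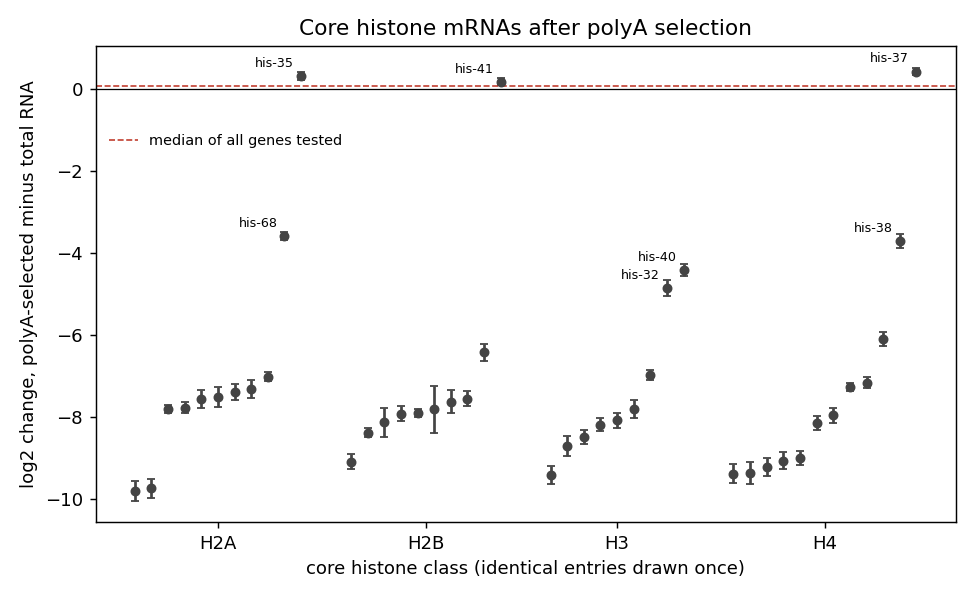
Log2 change ± SE of each distinct core histone entry, polyA-selected minus total RNA (n = 3 libraries each), grouped by histone class, with a dashed line at the median of all genes tested (0.07). Most entries lie below -6, with his-68, his-32, his-40 and his-38 between -3.59 and -4.86 and his-35, his-37 and his-41 above 0.

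The depth of the loss was not the same for every member. Of the 58 genes called lower, 54 fell by 6 or more on the log2 scale and 4 by less. The least depleted was the H2A gene his-68, with 232.0, 185.9 and 224.1 normalized counts after selection and 2735, 2493 and 2503 before, so that 8.30% of the mean remained. For the H4 gene his-38 the values were 69.5, 100.9 and 131.7 against 1346, 1169 and 1355, with 7.81% remaining. Both genes kept the groups far apart, but at a smaller distance than his-61 or his-64. The H3 genes his-40 and his-32 kept 4.59% and 3.55% of their total RNA mean. The next in order, the H4 gene his-31, kept 1.30%, and his-16, the H2A gene with the largest change, kept 0.114%. The 4 intermediate genes were singled out after their values were seen.

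The exceptions his-35, his-37 and his-41 were not lost. The H4 gene his-37 measured 2154, 2201 and 2862 normalized counts after selection and 1709, 1774 and 1861 before, and was called higher at 0.42 ± 0.0961 (adjusted p = 0.00585, limma). The H2A gene his-35 measured 1513, 1546 and 2045 after selection and 1349, 1294 and 1420 before, at 0.32 ± 0.10. The H2B gene his-41 measured 671.8, 712.1 and 735.1 after selection and 644.4, 635.5 and 594.6 before, and was not called (0.18 ± 0.0805, adjusted p = 0.149, limma). All polyA-selected values lay above all total RNA values for each of these genes, as for 19.5% of all genes tested. The call of his-35 (adjusted p = 0.0411, limma) was lost with median-ratio scaling (0.0671), TMM scaling (0.0543) and no filter (0.0668), and also by leaving out polyA replicate 3 (0.178) or any of the total RNA replicates (0.0993, 0.113 and 0.0529 for replicates 1, 2 and 3). These genes share the prefix C50F4 in their sequence names (C50F4.7, C50F4.13 and C50F4.5), which marks neighbouring genes of the same cloned segment, and no other core histone gene in the table carries it. In the gene order of WBcel235, his-35 lies next to his-41, and C50F4.6 lies between his-41 and his-37. C50F4.6, which is no histone gene, was also higher (0.41 ± 0.0883, adjusted p = 0.00382, limma). Neighbours mdf-1 (C50F4.11, -0.12 ± 0.0786) and nstp-10 (C50F4.14, 0.17 ± 0.0771) share the prefix and were not called. The genes his-35, his-37 and his-41 span 503 to 729 bases. Other protein-coding genes spanning under 1000 bases had a median change of 0.20, with 12.8% called higher.

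**Figure D2:**
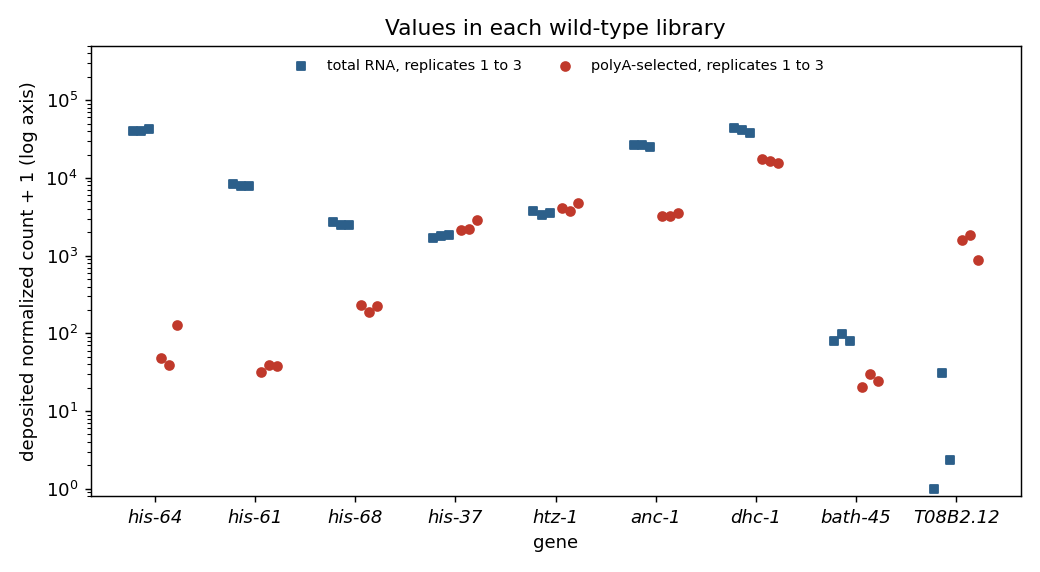
Normalized count + 1 (log axis) of 9 transcripts in each library, squares for total RNA and circles for polyA-selected RNA. The histone genes his-64, his-61 and his-68 fall with selection, his-37 and htz-1 do not, and T08B2.12 is high after selection.

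Histones outside the core set were mostly recovered by selection. Of 7 tested genes for replacement and centromeric histones, none was called in either direction by limma, and their median change was 0.20. Histone H2A.Z, encoded by htz-1 and found at promoters, measured 4102, 3705 and 4732 normalized counts after selection and 3703, 3291 and 3550 before (0.24 ± 0.0883, adjusted p = 0.0719, limma). The H3.3 gene his-72 changed by 0.20 ± 0.108 and the centromeric histone gene hcp-3 by -0.10 ± 0.0833, with overlapping groups for both. Among 8 tested linker histone genes, which encode the H1 proteins that bind between nucleosomes, hil-8 alone was called, at -1.38 ± 0.348 (adjusted p = 0.0116, limma). Its values were only 6.08, 9.78 and 5.90 against 24.4, 15.003 and 22.0, and the call was lost without total RNA replicate 1 (adjusted p = 0.0632, limma). A gene with a histone name outside the lists, his-73, fell by 1.58 ± 0.278, from 35.3, 35.5 and 26.1 to 8.69, 10.8 and 10.8.

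Core histones took up 1.89% ± 0.0471 (SD, n = 3) of the total RNA libraries and 0.0237% ± 0.00305 of the polyA-selected libraries, a ratio of 79.8. The 2 groups did not overlap, and the two-sided exact permutation test gave p = 0.1, the smallest that 3 against 3 libraries allow. Over the same genes, the share was 1.89% ± 0.204 in 3 wild-type mRNA libraries of generation 1 and 2.119% ± 0.0543 in 3 of generation 50, which were prepared as separate series and are given as a description.

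**Figure D3:**
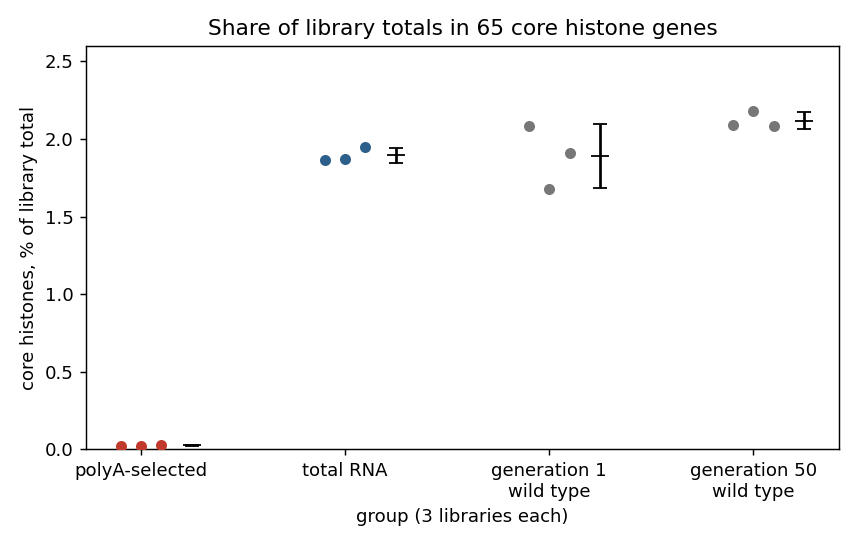
Percent of each library total in the 65 core histone genes, with points for libraries and bars for the mean ± SD (n = 3). The polyA-selected libraries lie near 0 and the other 3 groups near 2%, between 1.68% and 2.18%.

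Outside core histones, the loss followed gene size. Gene span was taken from RefSeq WBcel235 and includes introns, and it was available for all 13754 tested protein-coding genes outside core histones. The median log2 change was 0.20 for genes spanning under 1000 bases, 0.15 from 1000 to under 2000, 0.07 to under 4000, -0.08 to under 8000, -0.21 to under 16000, -0.41 to under 32000 and -0.78 at 32000 or more. Each step to longer genes lowered the median. The share of genes called lower rose in the same order, from 1.11% of 1799 genes in the shortest class to 60.2% of 279 and 84.4% of 45 in the longest classes. In the 2 longest classes together, 206 of 324 genes were lower, 58 of them by 2-fold or more, and none was higher.

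**Figure D4:**
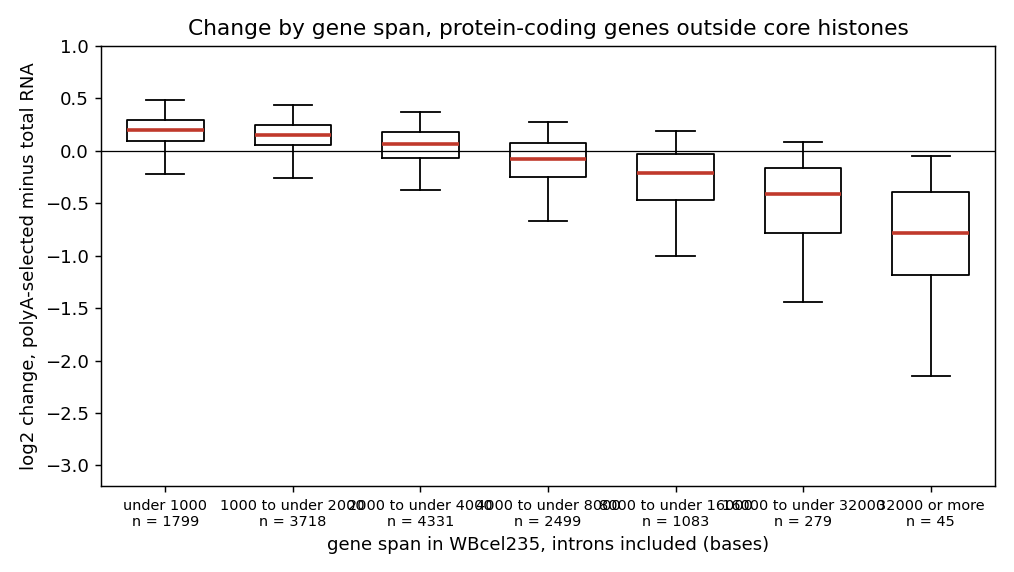
Log2 change of protein-coding genes outside core histones by gene span, with the median (red), the quartiles (box) and the 5th and 95th percentiles (whiskers) over genes. The median falls from 0.20 in the shortest class to -0.78 in the longest.

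In each polyA-selected library the median fell from class to class above 2000 bases. Below that, it was 0.15 in both classes in replicate 1. Relative to the mean of total RNA, the median difference of genes spanning 32000 bases or more was -0.72, -0.83 and -0.65 in the 3 polyA-selected libraries, and 0.03, 0.01 and -0.05 in the 3 total RNA libraries, whose class medians all lay between -0.06 and 0.06. For genes under 1000 bases it was 0.15, 0.16 and 0.30 in polyA-selected RNA. Genes spanning 16000 bases or more took up 3.07% ± 0.106 (SD, n = 3) of total RNA and 1.95% ± 0.140 of polyA-selected RNA (exact permutation p = 0.1, the smallest possible). Across genes, Spearman's rho between span and change was -0.513 over 13754 genes, which share the same 6 libraries.

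The order also held within levels of expression. Among genes with a total RNA mean of 300 or more, the median change went from 0.20 in the shortest class to -0.78 in the longest, and below 300 from 0.19 to -0.70, where the longest class held only 6 genes. Protein-coding genes lower by 2-fold or more outside core histones had a median span of 8809 bases, those called higher 1307, and all tested 2420. Long genes carry more introns and longer mRNAs, and the mRNA length itself was not analysed here. Which of these the change followed was not tested.

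Most genes in a list made for muscle proteins, among them the giant ones, were lower. The list also counted anc-1, which encodes a nuclear anchorage protein. Of the 12 listed genes, 10 were lower and 5 of those by 2-fold or more, with a list median of -0.97. Among all genes tested, 10.8% were lower and 2.71% were lower by 2-fold or more. In the longest span classes, 60.2% and 84.4% were lower. The nuclear anchorage protein gene anc-1, which spans 41060 bases, measured 3225, 3235 and 3510 normalized counts after selection and 26229, 26759 and 24751 before, a change of -2.96 ± 0.0769 (adjusted p = 1.52e-14, limma). Titin, encoded by ttn-1 over 81724 bases, measured 466.2, 448.6 and 511.8 against 3150, 3106 and 3254, a change of -2.74 ± 0.0759. In both genes all polyA-selected libraries were several times lower. The obscurin gene unc-89 fell by 1.97 ± 0.0772 and the twitchin gene unc-22 by 1.86 ± 0.0893. The body wall myosin gene unc-54 fell by 0.81 ± 0.120 and the pharyngeal myosin gene myo-2 by 1.15 ± 0.146. The paramyosin gene unc-15 (-0.28 ± 0.112) and dim-1 (0.00 ± 0.0786) were not called.

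The most abundant of the lowered genes are given next, as a description. By a rule added after the data were seen, the 12 genes most abundant in total RNA among those lower by 2-fold or more outside core histones were taken. They included dhc-1, the heavy chain of cytoplasmic dynein, with 17678, 16434 and 15723 normalized counts after selection and 43496, 41346 and 37958 before (-1.30 ± 0.0936). The fatty acid synthase gene fasn-1 changed by -1.59 ± 0.0776, the ubiquitin ligase gene eel-1 by -1.59 ± 0.0957, the spectraplakin gene vab-10 by -1.28 ± 0.0887, trr-1, a homologue of the TRRAP cofactor of histone acetyltransferases, by -1.59 ± 0.0913, and the spectrin gene sma-1 by -1.14 ± 0.0755. The smallest change of the 12 was -1.001 ± 0.0873, in the ubiquitin ligase gene ubr-5. The 3 wild-type mRNA libraries of generation 1, normalized separately, were not uniform for these genes. There fasn-1 stood at 8501, 8503 and 8082 and vab-10 at 9604, 10051 and 9529, against total RNA means of 24598 and 31983 here. By contrast dhc-1 stood at 39882, 41017 and 38224 and trr-1 at 15208, 15655 and 14538, against 40934 and 15593. What these differences follow was not tested.

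Some single genes lost more than their span class. ZC247.1 measured 594.3, 694.5 and 691.9 normalized counts after selection and 8944, 10570 and 9392 before (-3.87 ± 0.0846). The gene ncl-1, which encodes a protein that limits nucleolar size, measured 284.1, 227.0 and 255.5 against 3103, 3046 and 2645 (-3.52 ± 0.0940). They span 14929 and 18377 bases, in classes whose medians were -0.21 and -0.41. The histone H3K9 methyltransferase gene set-25 changed by -3.03 ± 0.0837 and gcn-2, encoding a kinase of the translation factor eIF2, by -2.18 ± 0.0771. Both lay below -0.78, the lowest median of any span class. These 2 were picked after their values were seen.

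Genes lower by 2-fold or more were also compared by their small RNA, separately for short and long genes. In C. elegans, RNA-dependent RNA polymerases copy target mRNAs into antisense secondary small RNAs, which Argonaute proteins use to silence or to mark their targets. Small RNA was read from 3 other wild-type libraries, of generation 1, aged 72 h, and their normalized count per gene is not corrected for gene length. Of the 56 protein-coding genes outside core histones that spanned under 4000 bases and were lower by 2-fold or more, 52 had a small RNA value. Of these 52, 31 (59.6%) had a mean small RNA count of 100 or more, against 10.3% of all 9811 tested genes of that span with a value. For genes spanning 4000 bases or more, the shares were 39.2% of 158 and 20.7% of 3902.

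The same order was seen within genes of low mRNA level. Among genes spanning under 4000 bases with a total RNA mean under 300, the median log2 change was 0.15 where the small RNA mean was under 1, 0.14 from 1 to under 10, 0.12 from 10 to under 100, -0.01 from 100 to under 1000, and -0.63 at 1000 or more. In the last class 28 of 60 genes (46.7%) were lower and none was higher, against 0.719% lower among 3059 genes in the first. The median differences of the last class were -0.63, -0.71 and -0.67 in the polyA-selected libraries and 0.01, 0.02 and -0.02 in total RNA. In genes of higher level and the same span, the median went from 0.17 to -0.09, the last class holding 27 genes. These classes were set after the data were seen. A gene of low level can pass the filter through its total RNA values alone. T11F9.10, with a small RNA mean of 1747, did so, as its polyA-selected values were all under 10. The level of a gene was also read from total RNA alone. The shares of lower genes and the medians by small RNA may partly reflect this, which was not tested.

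**Figure D5:**
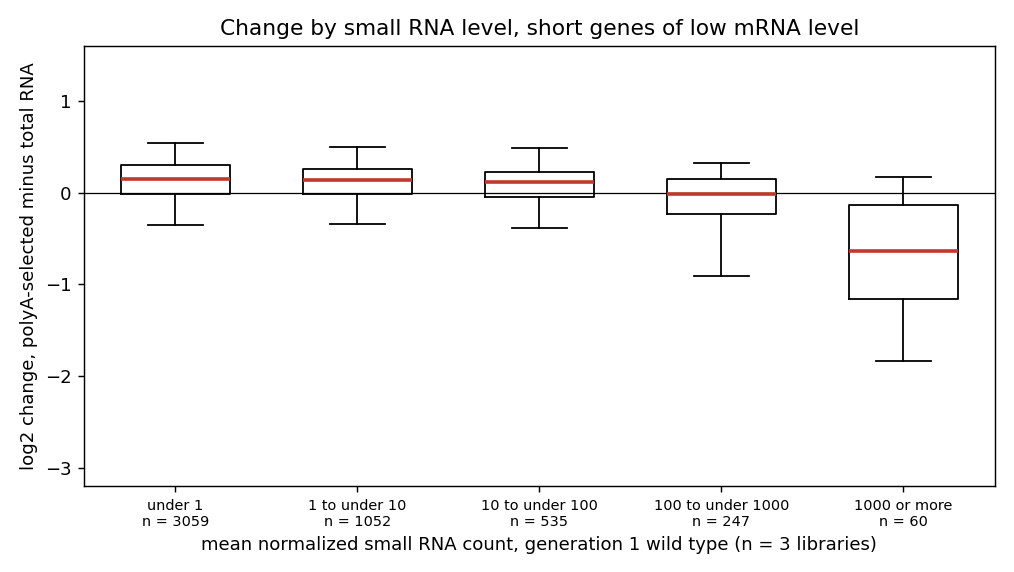
Log2 change of protein-coding genes outside core histones that span under 4000 bases and have a total RNA mean under 300, by mean small RNA count in generation 1 wild type, with the median (red), quartiles (box) and 5th and 95th percentiles (whiskers) over genes. The median stays between 0.12 and 0.15 up to a count of 100 and is -0.63 at 1000 or more.

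Although 31 of the 52 short genes had 100 small RNAs or more, the largest changes among them came with fewer. C15B12.3 changed by -5.54 ± 0.452 with a small RNA mean of 0.44, and nhr-245 by -3.83 ± 0.581 with 21.8. Y116F11B.2 (-3.53 ± 0.577) and nas-27 (-3.12 ± 0.347) had a small RNA mean of 0. Examples with many small RNAs, chosen after their values were seen, included genes of the BATH and F-box families. The BATH domain gene bath-45 measured 19.1, 28.8 and 23.6 normalized counts after selection and 78.7, 98.2 and 78.3 before (-1.80 ± 0.204, adjusted p = 6.05e-06, limma), and its small RNA count was 7512 ± 91.98 (SD, n = 3). F37D6.3 measured 9.56, 6.69 and 10.8 against 46.1, 53.2 and 42.6 (-2.29 ± 0.270), with 7141 ± 94.3 small RNAs. The groups were separate in both genes. The BATH gene bath-20 changed by -1.03 ± 0.245 with 7629 ± 263 small RNAs, and the F-box gene fbxc-43 by -1.15 ± 0.195 with 2542 ± 188. Better expressed genes were rare here. The gene cls-2, encoding a microtubule-binding CLASP protein, fell by 1.20 ± 0.0732 with 2287 ± 81.96 small RNAs. The gene pab-2, which encodes a polyA-binding protein, fell by 1.11 ± 0.0790 with 454 ± 16.7. Among genes spanning under 4000 bases with a total RNA mean of 300 or more, 1 of 27 was lower by 2-fold or more at 1000 small RNAs or more. The counts were 5 of 678 from 100 to under 1000 and 1 of 893 under 1. Core histones, the list with the lowest median change, had no gene with 100 small RNAs or more among the 57 called lower that had a value, against 13.4% of all 14164 tested genes with a value. At 10 small RNAs or more, the shares were 54.4% of these core histones and 45.5% of all.

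Transposons and entries with no match were called lower more often than protein-coding genes outside core histones, of which 9.59% were lower. Of 587 transposon entries, 47 passed the filter; 24 of these were lower, 21 by 2-fold or more, and 1 was higher, with a median of -0.73. The single higher entry was not called under any of the 3 other scalings. The transposon entry with the largest change, WBTransposon00000445, measured 0, 0 and 0.983 normalized counts after selection and 582.1, 556.6 and 423.0 before (-8.68 ± 0.294). The entry WBTransposon00000216 measured 0.869, 0.515 and 1.97 normalized counts after selection and 270.0, 244.2 and 221.1 before (-6.92 ± 0.288). WBTransposon00000275 fell by 2.48 ± 0.179. A transposon entry can share reads with its other copies, so these may not be separate measurements. Among pseudogenes, 64 of 448 were lower and 40 by 2-fold or more (8.93%, against 1.56% of protein-coding genes outside core histones), with B0250.3 at 42.6, 42.7 and 53.1 against 3438, 2867 and 2502 (-5.96 ± 0.121). In the generation 1 wild-type mRNA libraries, normalized separately, B0250.3 stood at 275.6, 328.4 and 222.4. Of 238 tested entries not matched to WBcel235, 101 were lower and 61 by 2-fold or more (25.6%). A low entry can pass the filter through its total RNA values alone, as WBTransposon00000216 did. The shares of lower transposon, pseudogene and unmatched entries, and the transposon median, may partly reflect this, which was not tested. Of the long noncoding RNAs listed by name, linc-29 was lower (-1.32 ± 0.221) and the other tested one was not called.

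The genes next to core histone genes are given as a description. Of 22 tested neighbours in WBcel235, 4 were lower, against 10.8% of all genes tested, and 1 was higher (C50F4.6), against 5.47%. Among the lower neighbours, 1 gene fell by 2-fold or more (4.55% of those tested, against 1.78% of the other protein-coding genes and pseudogenes). That gene was rpms-1, with 6.08, 3.60 and 9.83 normalized counts after selection and 84.1, 117.3 and 141.5 before (-3.996 ± 0.305). It passed the filter through its total RNA values alone, as its polyA-selected values were all under 10. The 4.55% rests on this gene and may reflect the filter, which was not tested. Counting by strand is not stated, so reads of rpms-1 and of any transcript overlapping it on the other strand could not be told apart.

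Mitochondrial transcripts changed in both directions. The table held 12 entries whose names begin with MTCE, the prefix of the mitochondrial genome; 11 were tested, 3 were lower (27.3%, against 10.8% of all genes tested) and 2 higher (against 5.47%), with a median of 0.08. The entry MTCE.26 measured 102706, 81392 and 78221 normalized counts after selection and 139044, 128392 and 127965 before (-0.60 ± 0.136), while MTCE.16 measured 1815, 1499 and 1329 against 864.3, 933.0 and 939.3 (0.75 ± 0.0979, adjusted p = 3.01e-05, limma). Neither showed overlap, and the changes went in opposite directions. Together the 12 entries took up 0.855% ± 0.158 (SD, n = 3) of polyA-selected and 0.999% ± 0.0298 of total RNA libraries, which overlapped (exact permutation p = 0.3).

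Of 28 mRNAs whose translation or tail is controlled in the germ line, 3 were lower and 2 higher, near the 10.8% lower and 5.47% higher of all genes tested, and the median was 0.00. The Notch receptor gene glp-1 fell by 0.42 ± 0.0803 and lin-41, a regulator of oocyte maturation, by 0.57 ± 0.0880, while the oocyte genes oma-1 (0.02) and rme-2 (-0.17) were not called. The eggshell and oocyte surface genes chs-1, encoding chitin synthase (-0.62 ± 0.0956), and mbk-2, encoding a kinase of the oocyte-to-embryo transition (-0.78 ± 0.0804), were the 2 lower genes of 15. Of the 6 yolk protein genes, vit-1 was lower (-0.64 ± 0.114, adjusted p = 0.000751, limma) and 5 were not called, at -0.25 to -0.38. Sequences of vitellogenin genes are alike, so their counts may not be separate.

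Gains were small and more frequent among short genes: 12.8% of protein-coding genes spanning under 1000 bases outside core histones were higher, and 1.76% of those from 4000 to under 8000. Of 54 tested genes of small sperm-enriched peptide families, 8 were higher (against 5.47% of all genes tested) and none lower, with a median of 0.24, beside 0.20 for all protein-coding genes spanning under 1000 bases outside core histones. The count was 4 with median-ratio or TMM scaling, 3 without total RNA replicate 1, 12 without its replicate 2, 5 without its replicate 3, and 25, 2 and 4 without polyA replicate 1, 2 and 3. In this family nspd-10 measured 347.7, 387.3 and 403.9 normalized counts after selection and 241.5, 272.7 and 244.4 before (0.58 ± 0.1002, adjusted p = 0.000516, limma). Of 33 proteasome genes 8 were higher, beside 5.47% of all genes tested, with pbs-4 at 0.37 ± 0.0888; without total RNA replicate 1 or 2 the count was 1, and without total RNA replicate 3 or polyA replicate 3 it was 3. Of 21 vacuolar ATPase genes 4 were higher and 3 lower, beside 5.47% and 10.8% of all genes tested, with vha-9, which encodes a small subunit, at 0.52 ± 0.0711 and vha-3 at -0.79 ± 0.0839. None of 78 cytosolic ribosomal protein genes was called by limma, with a median of 0.15 and with 16 higher under scaling to library totals. Their share of the library was 12.7% ± 1.52 (SD, n = 3) after selection and 10.96% ± 0.213 before (exact permutation p = 0.1).

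One gene gained far more than any other. T08B2.12, a protein-coding gene spanning 634 bases, measured 1602, 1820 and 866 normalized counts after selection and 0, 30.0 and 1.37 before, a change of 8.34 ± 0.780 (adjusted p = 6.27e-07, limma). The polyA-selected values were all above the total RNA values, which themselves were uneven, with total RNA replicate 2 apart from the rest. In the 3 wild-type mRNA libraries of generation 1 it stood at 60.1, 56.6 and 39.9, on a scale normalized separately. Next among the named genes came F35C11.3 (1.08 ± 0.305) and the F-box gene fbxa-55 (0.97 ± 0.171). The nuclear receptor gene nhr-73, at 38.2, 36.0 and 30.5 against 13.6, 12.3 and 13.7 (1.33 ± 0.251), lay below the level required for naming and was added after its values were seen.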

How the data were processed

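The libraries were made from RNA depleted of rRNA and enriched over 200 nt, with the NEBNext Ultra II Directional or the TruSeq Stranded Total RNA kit, per the labels' protocols. The deposited signal is read counts per gene that the authors divided by a factor per library, as the values show: 95.7% to 96.8% of low values were whole within 0.1 after dividing by the value of 1 read. Because these are not raw counts, limma 3.58.1 in R 4.3.3 was used. Names of the aligner, counter and build used for mRNA were not given in the sources used here. Second entries of 158 genes were summed with the first. Of 22099 gene IDs, 21281 matched RefSeq WBcel235, which was used for names, kind, span and neighbours.

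limma was fitted on log2(value + 1) with 1 mean per group and a mean-variance trend, for genes at 10 or more in at least 3 libraries. Calls were made at a Benjamini-Hochberg adjusted p under 0.05 over all genes tested. Shares were compared with two-sided exact permutation tests. On simulated data with 50 genes at each fold, the fit recovered 50, 47, 50 and 50 genes changed by -2, -1, 1 and 2 on the log2 scale, with 13 false calls. Genes and lists were chosen with earlier results of these data known. Named genes were the 3 largest and 3 smallest changes per histone class, all mitochondrial entries, the 15 largest decreases and increases among called genes without overlap and with a mean of 50 or more in the higher group, and up to 3 each way per list by smallest p. A selection is printed. Other genes are marked as chosen later or were printed outside these rules without a mark, such as unc-22, unc-54, myo-2, unc-15, dim-1, oma-1, rme-2 and his-73. Lists not described in the results were nuclear respiratory chain genes (6 higher and 2 lower of 41), translation elongation factors (none of 6), cuticle collagens (1 lower of 127), major sperm proteins (2 higher of 31), neuropeptides (4 higher of 106), heat shock proteins (2 lower of 23) and male seminal fluid genes (1 higher of 3). RNase P and MRP RNAs and rRNA genes were not analysed here. Alternatives were 3 other scalings (median-ratio, TMM, library totals), no filter, a filter at 50, a pseudocount of 8, a replicate block and leaving out each library.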

Additional observations from a re-analysis of the deposited data

How the results depend on the processing

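The count of core histone genes lower was 58 or 59 under every alternative that kept all libraries, except that counting identical copies once gave 39, and 58 to 61 when each library was left out, where the filter admitted further entries. Their share differed by 1.87 percentage points between groups, and by 2.08 with the 20 largest genes left out of the denominator. Genes spanning 16000 bases or more that were lower numbered 188 to 200 when a library was left out and 192 to 230 under the other alternatives. Lower genes numbered 1235 to 1620, and genes lower by 2-fold or more 383 to 428, when a library was left out.

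Counts of higher genes depended most on the processing. Higher genes numbered 1408 with scaling to library totals, and those higher by 2-fold or more, 7 as reported, numbered 4 with median-ratio scaling, 14 with no filter, 2 with a filter at 50 and 2 with a pseudocount of 8. When each library was left out, calls ranged from 1537 to 2251, higher genes from 302 to 713, and those higher by 2-fold or more from 2 to 34, the last without total RNA replicate 2. Short genes of low level with small RNA of 1000 or more that were lower, 28 as reported, numbered 13 with a filter at 50, which tests fewer genes, and 23 to 28 when a library was left out. The cause of the other shifts was not tested.

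Replicate numbers are shared between the kinds of RNA, and the deviations of libraries with the same number correlated at -0.0025, 0.294 and 0.0241 across genes. Libraries with different numbers correlated at -0.174 to 0.137. Not every library correlated best with its own number, and the numbers were not taken to pair the samples. Whether the samples were paired cannot be settled from these values. With a replicate block, calls numbered 4529 and higher genes 2368.

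Of the changes of single genes under the alternatives, 2179 kept their direction and side of the threshold, 145 lost the call, 7 gained one and 7 changed sign, all of the last in uncalled genes with a library left out: hil-5 (-0.0035 to 0.15), cpar-1 (-0.038 to 0.14), hil-6 (-0.40 to 0.11), MTCE.23 (-0.024 to 0.19), MTCE.3 (-0.16 to 0.011) and MTCE.31 (-0.015 to 0.16), of which MTCE.3 changed sign with either of 2 libraries left out (0.00048 without total replicate 1). Depth limits low entries most, and their changes are understated by the pseudocount.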
